A study of Homo sapiens with 12 samples.

Results

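Peak intervals from m6A profiling were examined on 9 genes of the mTORC1 pathway in H460 cells, a long-established cell line from a human large cell lung cancer: MTOR, RPTOR, RICTOR, TSC1, TSC2, RHEB, DDIT4, RPS6KB1 and EIF4EBP2. An interval was counted for a gene when at least 1 bp of it fell inside a fixed hg19 window for that gene, on the gene's strand. The rule used position alone and no measured value. It found 48 intervals, out of 53502 in the series, on 8 of the 9 genes. RHEB had none in any list.

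The libraries came from MeRIP-seq, which enriches RNA fragments bearing N6-methyladenosine (m6A, the commonest internal mark of mRNA) by immunoprecipitation (IP) and sequences them along with an unenriched input library. Per the labels, wild-type H460 cells were either left untreated or given 100 nM rapamycin for 24 h to induce autophagy, and input and IP libraries of both kinds of cell make 4 groups of 3, or 12 libraries. The labels do not say whether replicates were separate cultures. The data are 6 peak lists, called A to F here, each line giving a position, a strand and a score.

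The GEO record attaches A, C and E to the inputs 1, 2 and 3 of untreated cells, and B, D and F to the IPs 1, 2 and 3 of untreated cells. The names under which D, E and F were deposited carry the word rapamycin, whereas con appears in the names of A, B and C. Because these sources conflict, no list was put in a treatment arm and no test of rapamycin was made. Each value below is that of a single list, without replicates, and the sequencing depth behind it is unknown, so a gene that a list lacks was not detected there rather than shown to lack m6A. The lists differ in length, from 4530 intervals in E, 4837 in D and 4899 in F to 12040 in A, 12288 in C and 14908 in B. Read levels of the transcripts were not analysed here, so the cell line was not checked against marker genes.

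mTORC1 is a protein kinase complex that promotes growth and protein synthesis and holds back autophagy when nutrients and growth factors are plentiful. MTOR is its kinase and RPTOR the scaffold that brings substrates to it, while RICTOR is the scaffold of the sister complex mTORC2. The small GTPase RHEB switches mTORC1 on, the TSC1 and TSC2 proteins together switch RHEB off, and DDIT4 (REDD1) is a stress-induced inhibitor that acts through them. RPS6KB1 encodes the substrate kinase S6K1, and EIF4EBP2 encodes 4E-BP2, a repressor of cap-dependent translation that mTORC1 inactivates. Rapamycin inhibits mTORC1. In many mRNAs m6A is known to be enriched near the stop codon and in long internal exons.

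The gene windows ran from 2.12 kb (DDIT4) to 422 kb (RPTOR). RPTOR and TSC1 carried the most intervals, 11 each, and were the only members with an interval in all 6 lists. In E, RPTOR had only a 66 bp interval, away from the 3′ region that the other lists held. The shares of all genes with an interval, or with 1 in every list, were not computed. With F left out, MTOR and RPS6KB1 joined RPTOR and TSC1, which makes 4 members that had an interval in every remaining list. RPS6KB1 had 8 intervals and MTOR 6, both in every list but F. DDIT4 had 4 (A, B, C and E), TSC2 had 3 (A, B and E), EIF4EBP2 had 3 (B, C and E) and RICTOR had 2 (A and C). List A held 8 of these intervals and list E also 8, while B held 15, C held 10, D held 5 and F held 2. Per 1000 intervals of the list this was 0.664 for A, 1.01 for B, 0.814 for C, 1.03 for D, 1.77 for E and 0.408 for F. List E, the shortest, thus covered 7 of the 9 genes, as many as A, B and C did. List D covered 4 of them and list F covered 2.

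**Figure D1:**
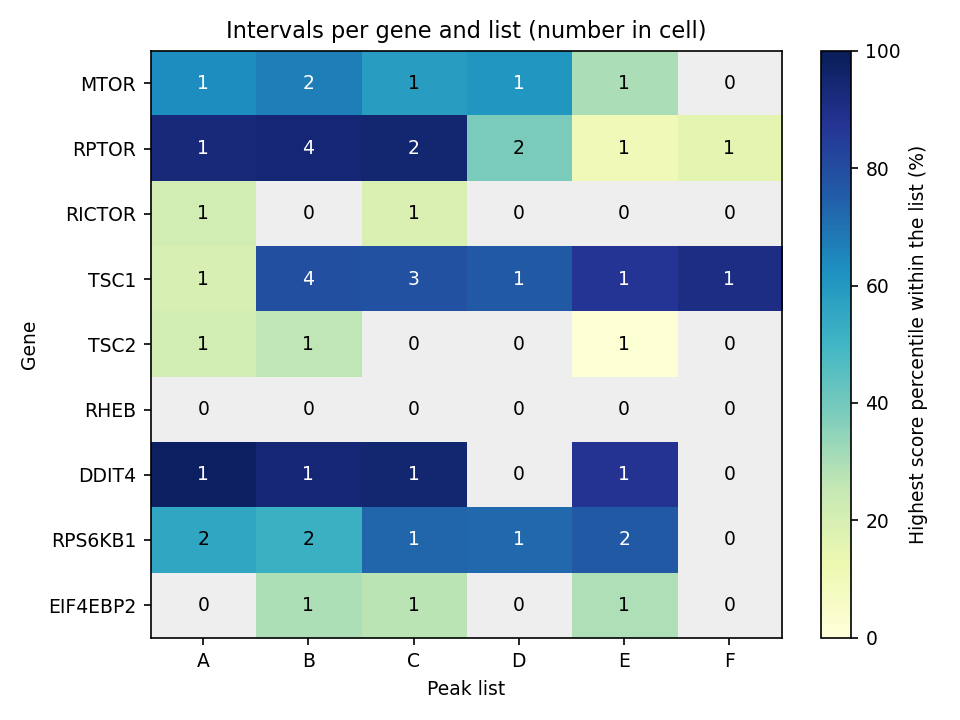
Number of intervals of each gene (rows) in each peak list (columns), with the colour giving the highest score percentile of that gene's intervals within the list (grey: no interval). RPTOR and TSC1 are filled in all 6 lists, RHEB in none, and the F column holds only these 2 genes.

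The authors' score has no stated scale, so an interval's score was read as a percentile of its own list (the share of the list ranked at or below it, with ties at their mean rank). Over the 48 intervals the median percentile was 52.5, and 25 lay above the middle of their list. The genes themselves differed far more than this median shows. DDIT4 ranked between 87.8 and 98.0 in each list that held it, whereas no interval of EIF4EBP2, RICTOR or TSC2 ranked above 29.6. The members' intervals ran from 66 bp to 5354 bp in width, with a median of 973.5 bp against 594 bp over all intervals. Both medians pool the lists and count a place once per list. Within lists, the members' median was above the list's in A, C, D and F. It was close to it in B (559 bp against 526 bp) and below it in E (706 bp against 829.5 bp).

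The middle of 26 of the 48 intervals (54.2%) fell in the last 10% of the window, that of 9 in the first 10%, and that of 13 between. A place counts here once for each interval on it, so a few places supply most of the 26. Near the 3′ end, 1 place each on MTOR, RPTOR and RPS6KB1 had 5 intervals, and 1 on TSC1 had 8. The share for the other genes of the series was not computed. The last bp of the window was reached by 16 intervals, on MTOR, RPTOR, TSC1 and DDIT4. At the other end, 8 intervals reached or crossed the first bp, on RPTOR, TSC1, RPS6KB1 and EIF4EBP2. EIF4EBP2 was the only member whose intervals all lay at the 5′ end. An annotation in hg19 was not used, so exons, introns, stop codons and untranslated regions were not assigned.

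**Figure D2:**
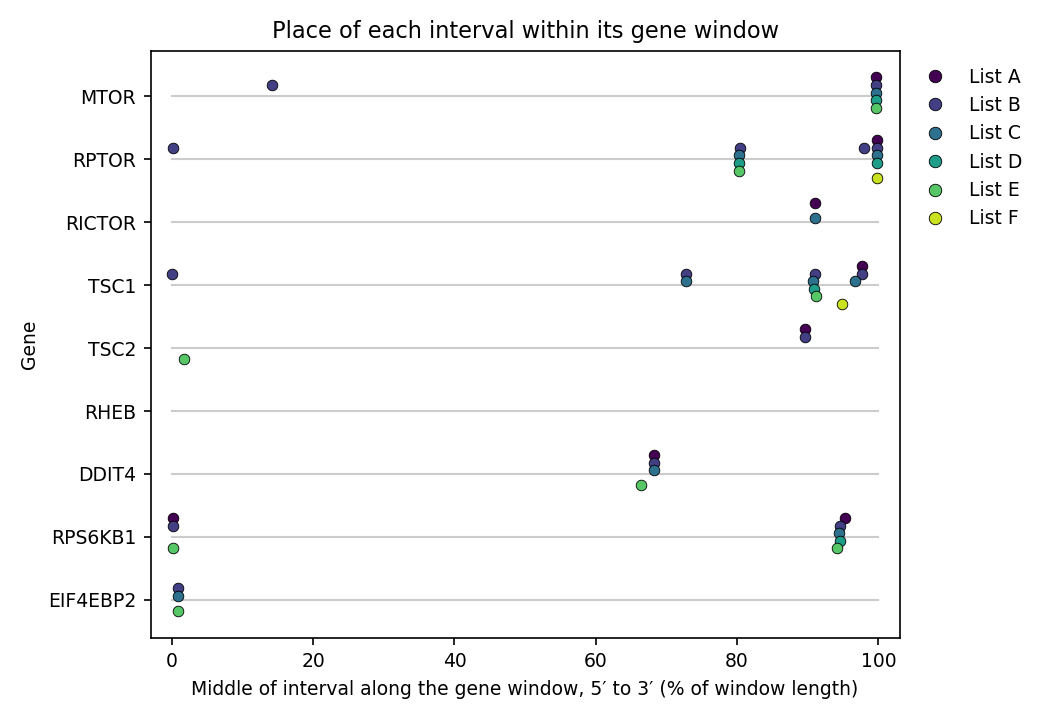
Middle of each interval along its gene window, from the 5′ end (0%) to the 3′ end (100%), with colour for the list. MTOR, RPTOR, TSC1 and RPS6KB1 gather points of several lists near the 3′ end, and EIF4EBP2 has points only near the 5′ end.

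Intervals of different lists that overlapped were joined, which gave 17 regions on the 8 genes out of 20742 in the series. A region was held by all 6 lists in 1 case of 17, on TSC1, against 8.30% of all regions. The case depends on list F: without it, 2 regions were held by all remaining lists, on MTOR and RPS6KB1, and without E there were 2, on RPTOR and TSC1. At least 5 lists held 4 of the 17, on MTOR, RPTOR, TSC1 and RPS6KB1, against 16.2% of all regions. Those found in 1 list numbered 6 of 17, against 36.9%. On these counts the recurrence of the members' regions was near that of the series, with few regions to judge it by. Of the 6 regions found in 1 list, 5 belonged to B, the longest list, and 1 to E. Regions seen only within A, B and C numbered 8, a region seen only within D, E and F occurred on TSC2, and 8 had intervals from both sets. Over all regions the corresponding shares were 61.6%, 4.81% and 33.6%.

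**Figure D3:**
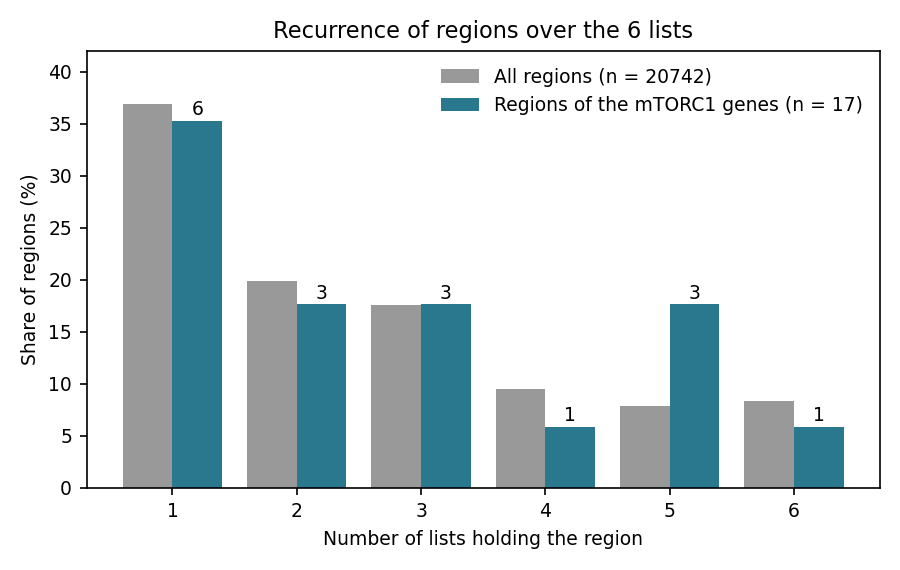
Share of regions (%) by the number of lists that hold them, for all 20742 regions (grey) and for the 17 regions on the mTORC1 genes (blue, with their number above the bar). The bars at 5 lists differ most, with 3 of 17 regions against 7.88% of all.

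MTOR, the kinase itself, carried 1 recurrent region at the 3′ end of its 156 kb window on the minus strand, chr1:11166588-11167557. The interval had identical ends in A, B, C, D and E, was 970 bp wide and stopped exactly at the end of the window. List A scored it 388, B 645, C 491, D 254 and E 116. Within their lists these ranked at percentiles 63.7, 62.6, 58.4, 60.6 and 29.9. The rank was thus similar in A to D and lower in E, and F had no interval on MTOR. List B alone held a further interval of 245 bp at chr1:11300360-11300604, 14.2% of the way along the gene from its 5′ end, with a score of 792 (percentile 66.8).

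RPTOR, the mTORC1 scaffold, had its main region at the very 3′ end of a 422 kb window, chr17:78938062-78940173 on the plus strand. All 5 intervals ended at the last bp of the window, and their starts differed by at most 165 bp. List A scored it 2020.2, B and C 3100, D 145 and F 87.6. The corresponding percentiles were 93.2, 93.9, 94.8, 38.5 and 15.4. The region was therefore among the top ranks of A, B and C and in the lower part of D and F, and E, which had only a 66 bp interval on this gene, did not hold it. The value 3100 is shared by many intervals of a list, which cannot be ranked against one another.

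Inside RPTOR, about 80% of the way along the gene, 2 short regions lay 296 bp apart. The first, chr17:78857219-78857284, was 66 bp wide with identical ends in C, D and E, the narrowest interval of any member. It scored 155 in C (percentile 27.3), 86.5 in D (11.9) and 81.9 in E (10.2), low in each of these lists. The second, chr17:78857581-78857772, was 192 bp wide and occurred in B with a score of 734 (percentile 65.4). List B thus marked the same part of the gene without sharing a base with C, D or E. B alone also held an interval of 973 bp across the 5′ end of the window (chr17:78518619-78519591, score 192, percentile 32.7) and one of 107 bp near its 3′ end (chr17:78931424-78931530, score 139, percentile 23.4).

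RICTOR, the mTORC2 scaffold, was marked at 1 place, chr5:38949814-38950822 on the minus strand. The interval was 1009 bp wide with the same ends in both lists that held it. It lay 11793 bp short of the 3′ end of its 136 kb window, unlike the MTOR and RPTOR regions, which reached theirs. The score was 114 in A (percentile 21.6) and 119 in C (18.8). B, the longest list, did not hold it, and neither did D, E or F.

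TSC1, whose product stabilises TSC2, carried the only region of these genes held by all 6 lists, chr9:135766735-135772141 on the minus strand, 5407 bp long. No base of it was covered in all 6, however. An inner part was covered by B, C, D, E and F, whose intervals all had their 5′ boundary at 135772141 and shared the 974 bp from 135771168. A part at the 3′ end was covered by A, B, C and F, which shared 2407 bp (chr9:135766788-135769194). B and C had a separate interval on each part, with a gap of 1670 bp in B and of 845 bp in C. A had only the 3′ part, and D and E only the inner part. F alone ran through, with 1 interval of 5354 bp, the widest of any member, and so joined both parts into 1 region. When joining required a reciprocal overlap of 50%, the parts became separate regions of 4 lists each, and no member region was held by all 6.

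The inner part of TSC1 ranked high in each list that held it as an interval of its own. Its score was 1590.0 in B (percentile 78.9), 1341 in C (78.4), 444 in D (76.3) and 765 in E (87.4). The 3′ part was more uneven, at 109 in A (percentile 19.7), 427 in B (53.1) and 1365 in C (78.8). The long interval of F scored 801 (percentile 90.7). Lists B and C also shared an interval with equal ends, chr9:135780968-135781526, of 559 bp, scoring 203 in B (34.4) and 282 in C (44.7). At the 5′ end of the window B held an interval of 91 bp (chr9:135819930-135820020, score 143, percentile 24.5).

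**Figure D4:**
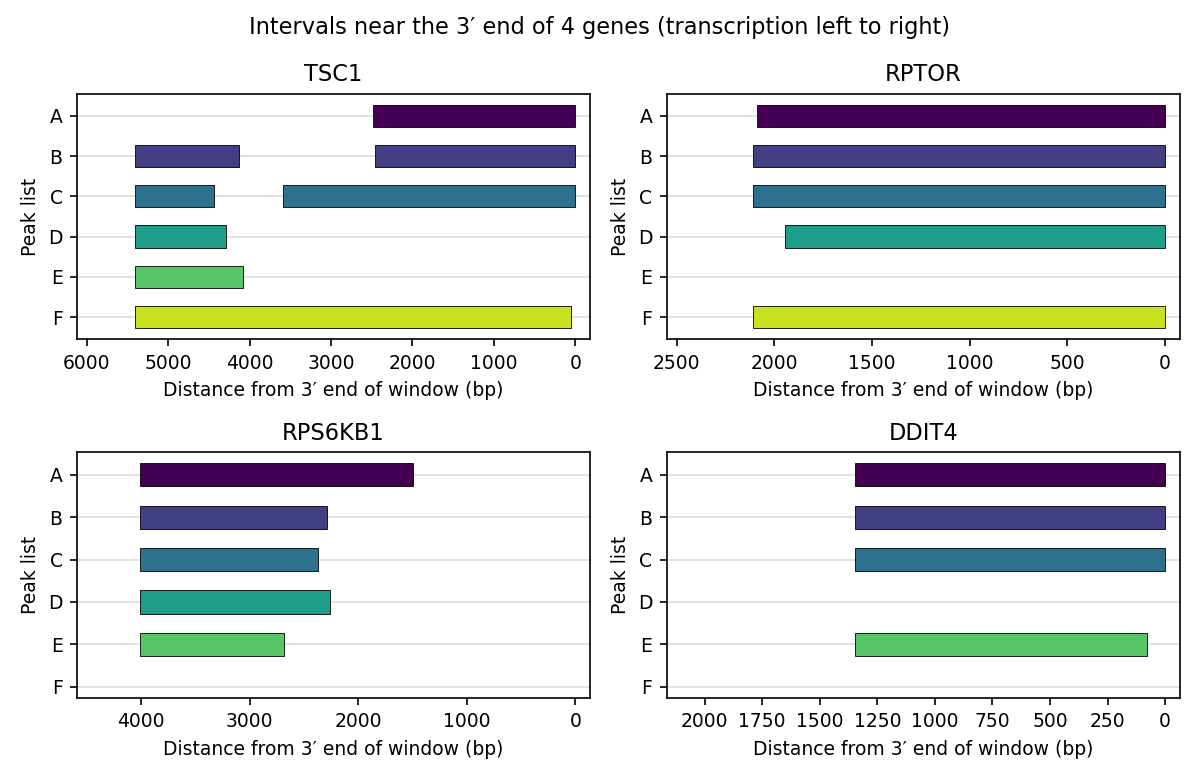
Intervals of each list (rows) against the distance in bp from the 3′ end of the gene window for TSC1, RPTOR, RPS6KB1 and DDIT4, with transcription from left to right. In TSC1 the bar of list F spans both the inner part held by B to E and the 3′ part held by A to C, and in RPS6KB1 all 5 bars begin at the same bp and end at different ones.

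TSC2, the subunit that acts on RHEB, had 3 intervals against 11 on its partner TSC1, 8 of which lay in the 1 region held by all 6 lists. A and B held overlapping intervals at chr16:2134247-2134716 on the plus strand, 3997 bp before the 3′ end of the window. These ended at the same bp and began 28 bp apart. The score was 114 in A (percentile 21.5) and 153 in B (26.4). E held an interval of 167 bp near the 5′ end (chr16:2098588-2098754) with a score of 71.8, at percentile 1.62 the lowest rank of any member interval. No list held both places, and C, D and F had neither. TSC2 was also the only window with intervals on the opposite strand, in B and C (chr16:2138711-2140195), which overlapped the last 3 bp of the window and were not counted.

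RHEB, the GTPase between the TSC proteins and mTORC1, had no interval in its 53.9 kb window on chromosome 7 (chr7:151163098-151217010), on either strand, nor within 1000 bp of it on its own strand. Whether its transcript was present at a level that would allow a peak was not analysed here.

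DDIT4, the stress-induced inhibitor, is the shortest of these genes, and its intervals covered 63.4% of its window in A, B and C and 59.7% in E. The interval chr10:74034453-74035797, on the plus strand and 1345 bp wide, had identical ends in A, B and C and ended with the gene. In E it started at the same bp and stopped 79 bp earlier. The score was 3100 in A, B and C and 796 in E. The percentiles were 98.0, 93.9, 94.8 and 87.8, the highest of the members in A and E and level with RPTOR in B and C. D and F had no interval on DDIT4. Regions that reached 3100 in at least 1 list numbered 2 of the members' 17, on DDIT4 and RPTOR, against 9.87% of all regions.

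RPS6KB1 and EIF4EBP2, which encode substrates of mTORC1, both had a low-ranked interval at the start of the gene. To show the start sites concerned, the RefSeq promoter of each is given 5′ to 3′ on the plus strand of GRCh38.p14, the 250 bases before the annotated start in lower case and the first 30 transcribed bases in capitals (chr17:59892871-59893150 and chr10:70403895-70404174). The intervals are in hg19 and were not placed on these sequences.
RPS6KB1: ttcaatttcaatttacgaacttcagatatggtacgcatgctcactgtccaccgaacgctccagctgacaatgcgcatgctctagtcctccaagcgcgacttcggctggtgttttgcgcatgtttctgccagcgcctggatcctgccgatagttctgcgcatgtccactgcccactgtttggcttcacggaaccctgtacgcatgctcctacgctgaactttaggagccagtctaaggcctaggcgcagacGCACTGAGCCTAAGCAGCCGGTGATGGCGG
EIF4EBP2: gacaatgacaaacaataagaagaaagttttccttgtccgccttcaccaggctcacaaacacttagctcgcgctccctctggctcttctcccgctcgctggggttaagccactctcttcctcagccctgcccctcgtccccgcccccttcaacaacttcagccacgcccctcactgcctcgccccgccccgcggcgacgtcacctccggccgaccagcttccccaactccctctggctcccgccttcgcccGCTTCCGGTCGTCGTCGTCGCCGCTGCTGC

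The letters GGAC, the core of the motif at which m6A is most often found, were searched in the first 50 transcribed bases of the promoters of all 9 genes, on both strands (GGAC, and its reverse complement GTCC, which cannot overlap it). GGAC itself stood on the transcribed strand in 3 of the 9, MTOR (1 match), TSC1 (1) and DDIT4 (2). Counting either strand, 5 of the 9 held a match, with RPTOR and 1 of the 2 promoters listed for TSC2 added. RPS6KB1 and EIF4EBP2 had none on either strand in these 50 bases, and neither had RICTOR or RHEB. Of the stretch searched, only the first 30 bases are shown above, in capitals. The lower-case bases before the start were not searched. Of 35116 RefSeq promoters, 18.9% held GGAC on the transcribed strand in this stretch and 33.5% on at least 1 strand. These shares count promoters, of which the 9 genes had 10, so they are not matched to the counts of genes. A match on the other strand only is not GGAC in the transcript. The stretch is far shorter than the intervals, so a match or its lack describes these 50 bases only.

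RPS6KB1 had its recurrent region near the 3′ end, chr17:58023912-58026427 on the plus strand, in A to E. All 5 intervals began at the same bp and ended at 5 different ones up to 1185 bp apart, so that widths ran from 1331 bp in E to 2516 bp in A. None reached the end of the window, the nearest stopping 1498 bp before it. List A scored it 289, B 404, C 1011, D 376 and E 421. The corresponding percentiles were 55.3, 51.9, 73.0, 72.3 and 76.4, above the middle of the list in each. At the 5′ end, A, B and E held an interval ending at the same bp (chr17:57970407-57970686), which began up to 36 bp before the window. It scored 90.2 in A (percentile 11.7), 179 in B (30.8) and 76.7 in E (6.18). In each of these lists it ranked below the 3′ interval of the same gene.

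EIF4EBP2 had 1 region, chr10:72163861-72164302 on the plus strand, in B, C and E. Its intervals were identical, 442 bp wide, and began at the first bp of the window. The score was 171 in B, 154 in C and 114.5 in E. The percentiles were 29.6, 27.1 and 29.0, a narrow range in the lower part of each list. No list held an interval in the remaining 24072 bp of the gene towards its 3′ end. The most recurrent region lay towards that end on MTOR, RPTOR, RICTOR, TSC1, TSC2, DDIT4 and RPS6KB1. On DDIT4, whose window is short, the middle of that region was only 68.3% of the way along.

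Boundaries were equal in some recurrent regions of these genes and not in others, as in the series at large. Of the 11 regions held by 2 or more lists, 5 had both ends equal in every interval (1 each on MTOR, RPTOR, RICTOR, TSC1 and EIF4EBP2), against 57.4% of such regions in the series. The other 6 kept the same bp at 1 end or both ends varied: starts on RPS6KB1 (3′ region) and DDIT4 were fixed and the ends moved, whereas the ends of the RPTOR 3′ region, the TSC2 region and the RPS6KB1 5′ region were fixed and the starts moved. The long TSC1 region was the only one in which both varied.

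List F held the fewest intervals on these genes, 2 of its 4899. The next lowest share was that of A, with 8 of 12040, and all lists together had 48 of 53502. List F had no interval on MTOR, RICTOR, TSC2, RHEB, DDIT4, RPS6KB1 or EIF4EBP2, and the 2 it had lay on RPTOR and TSC1. List D, of nearly the same length (4837 intervals against 4899), held 5 intervals on MTOR, RPTOR, TSC1 and RPS6KB1, and list E held 8 on 7 genes. These gaps amount to a few intervals. With 1 value per list, whether F differs from the other lists was not tested. The other genes of the pathway, such as further subunits of the complexes and the Rag GTPases, were not analysed here because the gene table used is in another build than the lists.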

How the data were processed

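MeRIP-seq of H460 cells was analysed from 6 peak lists. Build hg19 and HISAT2 2.0.4 are named in the submitters' processing notes. Per the files, peaks bear MACS names. The caller's version and settings, and which libraries went into a list, were not given in the sources used here. Scores are the authors' deposited values, 1 per interval on an unstated scale, and start and end are the authors' deposited positions. Scores were ranked within a list only. Gene windows were fixed hg19 coordinates supplied with the gene list, and positions are 1-based. Intervals were assigned by overlap of at least 1 bp on the same strand and joined over lists by the same rule. No test was made, since record and list names conflict over the arms. All members are named. The members and the gene lists were chosen with earlier results of these data known. Promoter sequences came from RefSeq tables (GRCh38.p14), where 9 of 9 members matched by symbol. Software was Python 3.11.15 with numpy 2.4.6, pandas 2.3.3 and scipy 1.17.1, and matplotlib 3.10.9 for figures. The code was tested on simulated lists of 2000 regions (6 of 6 known counts recovered), and gave the member counts of bedtools 2.31.1 in 6 of 6 lists. Alternatives were a minimum score, equal list length, other overlap and window rules, strand, narrow intervals and leaving out each list. Depth is unknown, so no counting interval is given.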

Additional observations from a re-analysis of the deposited data

How the results depend on the processing

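As reported, the median over lists was 8 member intervals and 9294 bp covered, with 17 regions, of which 1 was held by all lists, and 2 members in every list. With a minimum score at the median of all lists pooled (260.4) these became 3.5 intervals, 6137 bp, 8 regions, 0 in all lists and 0 members. With every list cut to the 4530 best-scored intervals they became 4 intervals, 5832.5 bp, 9 regions, 0 in all lists and 1 member. Both alternatives remove intervals by construction. A reciprocal overlap of 50% gave 18 regions and 0 in all lists, because the TSC1 region then splits into a set of A, B, C and F and a set of B, C, D and E. Leaving out each list in turn gave 1 to 2 regions held by all remaining lists, with 2 without E (RPTOR and TSC1) and 2 without F (MTOR and RPS6KB1). It gave 2 to 4 members in all remaining lists, the 4 without F being MTOR, RPS6KB1, RPTOR and TSC1. The regions in any list numbered 12 without B, 16 without E, 18 without F and 17 without A, C or D. Without F the long TSC1 region falls into separate regions. The median number of intervals was 7 with intervals wholly inside the window and stayed at 8 with the window widened by 1000 bp, without regard to strand and without intervals under 50 bp. The covered length was 9172 bp wholly inside and 9294 bp without regard to strand, which also left 2 members in every list. The median over lists of the median percentile was 52.45 as reported, 54.19 wholly inside and 52.45 without narrow intervals, which left the counts of regions at 17 and 1. These alternatives were not run on the other values. Narrow intervals test nothing here, since the narrowest member interval has 66 bp. No paired analysis was possible because no list was given an arm and no test was made. Depth is unknown, so a list's missing intervals cannot be told apart from undetected ones.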
